A study of Mus musculus with 10 samples.

Results

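The imprinted growth genes are a family of 10 genes, H19, Meg3, Rian, Mirg, Peg3, Dlk1, Mest, Plagl1, Grb10 and Ndn. They were picked by gene symbol, with earlier results of these data known. All 10 had an entry among the 25233 entries with a symbol in a table of 62322 gene entries. RNA sequencing gave their levels in 5 libraries of hypHSCs, hypertrophied hepatic stellate cells, and 5 of qHSCs, quiescent ones, all sorted from the livers of male C57BL/6J mice by their own fluorescence. The hypHSCs came from mice on CDAHFD, a choline-deficient high-fat diet used as a model of steatohepatitis with fibrosis. Libraries hypHSC 1 and 2 were from mice aged 19 weeks after 13 weeks of the diet, and hypHSC 3, 4 and 5 from mice aged 18 weeks after 12 weeks of it. The qHSCs came from mice on standard diet, aged 36 weeks for qHSC 1, 2 and 5 and 34 weeks for qHSC 3 and 4. Diet, age and sorting gate (green fluorescence for hypHSCs, blue for qHSCs) changed together and cannot be told apart. The same holds for the digestion of the liver, which used more enzyme, a longer time and added antibiotics for hypHSCs. The replicates are cell preparations chosen for RNA quality, and since the mice behind them are not named the p-values measure only the spread between these preparations.

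An imprinted gene is transcribed mainly from the allele of 1 parent, and the choice is kept by DNA methylation that was laid down at a control region in the germ line. Many imprinted genes act on growth before birth, when their RNAs are abundant in mesenchymal tissues, and most are turned down after birth. Stellate cells are the mesenchymal, vitamin A-storing cells of the liver sinusoid. Neither the allele of origin nor methylation was measured here, and the parental labels used below are background knowledge that for several genes applies in some tissues only.

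All values are normalized counts, that is, read counts divided by a size factor of the library, and a level of 3 reads, taken as the floor of detection, equals 2.49 to 4.54 normalized counts in hypHSCs and 2.25 to 2.72 in qHSCs. A gene was tested if 5 or more of the 10 libraries reached 10 normalized counts, and was called if limma gave an absolute log2 fold change (hypHSC over qHSC) of at least 1 with a Benjamini-Hochberg adjusted p of at most 0.05. The libraries held 30534719 to 43283589 reads on named genes in hypHSCs and 35640104 to 47317028 in qHSCs, and mitochondrial entries held 2.21% to 12.8% and 1.25% to 1.61% of reads. In the libraries of hypHSCs the 12 listed markers of quiescent stellate cells were all called lower, and Hhip and Vipr1 were at or near 0. The summed level of the 12 was 5041 to 17603 against 686233 to 1299690 in qHSCs. Among other stellate cell genes, the study listed Sparc, Dcn, Csrp2, Bambi and Gfap as lower in hypHSCs. It listed Vim, Plin2, Pparg and Adipor1 as higher, and Acta2, Col1a1, Col1a2, Col3a1, Notch3 and Timp1 as unregulated. By droplet fluorescence the study judged its sorted cells highly pure, and it stained desmin, cRBP1 and smooth muscle actin protein in sorted hypHSCs. It also reported more CD36 and CD68 protein on sorted hypHSCs than on qHSCs. Before sorting, it saw no labelling of a macrophage surface protein on cells with fluorescent droplets. Of 12 macrophage markers 11 were called higher, with a summed level of 1131465 to 1579702 against 5703 to 143473, highest among qHSCs in qHSC 4 and qHSC 1. Among all genes tested, 21.7% were called lower and 17.8% higher. Of 10 hepatocyte markers 0 were called by limma, DESeq2 or edgeR, and 1 was lower at an unadjusted p of 0.05 (70147 to 122523 against 63019 to 133240). By limma, of 9 endothelial markers tested 3 were lower and 2 higher (764 to 1217 against 1613 to 2960), and of 5 fibroblast and mesothelial markers tested 4 were higher (8308 to 18826 against 594 to 6589). The higher call of the endothelial marker Stab2 was made in 12 of 25 alternatives, and not by DESeq2 or edgeR. DESeq2 and edgeR also did not call the macrophage marker Cd5l, and edgeR did not call the endothelial marker Tek, lower by limma. The part of these shifts in the results below was not tested, and in bulk libraries fewer cells of a type and less RNA per cell cannot be told apart.

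Of the 10 imprinted growth genes, 7 passed the filter on low values, and 6 of these (Ndn, Plagl1, Peg3, Mest, Grb10 and Meg3) were called lower in hypHSCs, where 21.7% of the 14630 genes tested were called lower and 39.5% were called in either direction. None of the 7 was called higher by limma, at an adjusted or an unadjusted p of 0.05, or by DESeq2 or edgeR. For each of the 6, every hypHSC library lay below every qHSC library, which held for 22.0% of all genes tested, and the exact two-sided permutation p was 0.00794, the smallest that the arrangements of 5 libraries against 5 allow. The median log2 fold change of the 7 was -4.63, beside -0.20 over all genes tested. For each of the 6, the 5 qHSC libraries alone were enough to pass the filter. The seventh, Rian, overlapped between the groups, and Mirg, Dlk1 and H19 were too low to be tested.

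**Figure D1:**
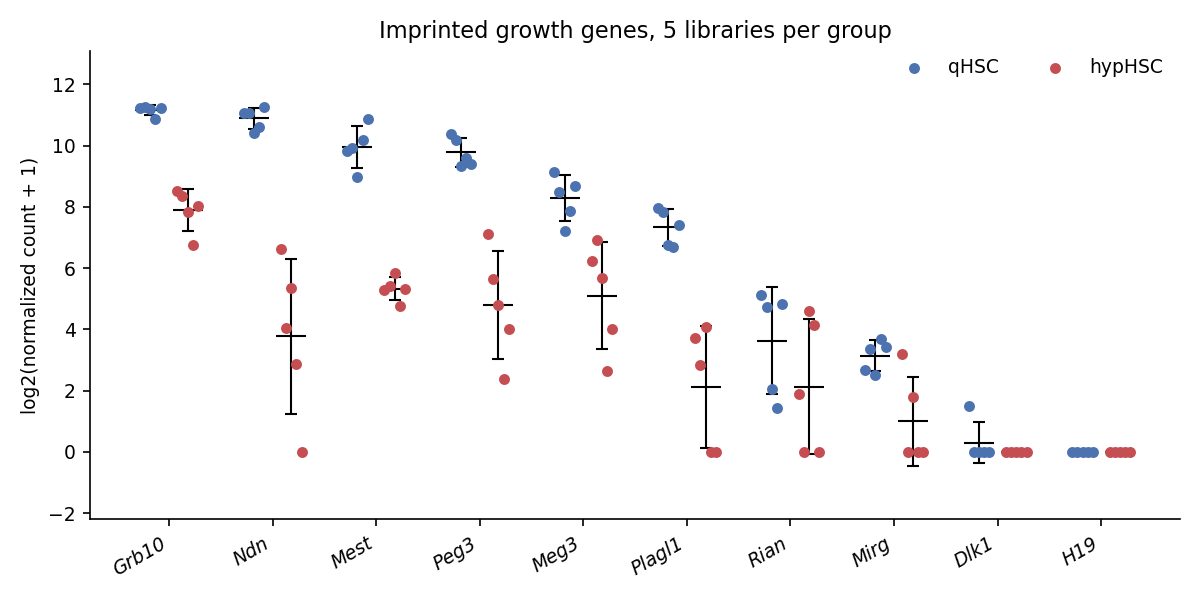
Level of each imprinted growth gene, as log2(normalized count + 1), in the 5 qHSC libraries (blue) and the 5 hypHSC libraries (red). Each point is a library, the horizontal bar is the mean and the whiskers the SD; the red points lie below all blue points for Grb10, Ndn, Mest, Peg3, Meg3 and Plagl1, overlap them for Rian and Mirg, and lie at 0 for Dlk1 and H19.

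The 300-base promoter windows of the 4 members below are shown because these genes moved together and differ widely in CpG content, the dinucleotide that carries methylation. They run 5′ to 3′ on the strand of the gene, from 250 bases before to 50 after the start given by RefSeq, with each CG in capitals. Their positions on GRCm38.p6 are chr7:62348027-62348326 (+ strand) for Ndn, chr7:6730370-6730669 (- strand) for Peg3, chr10:13090582-13090881 (+ strand) for Plagl1 and chr11:12037371-12037670 (- strand) for Grb10.
Ndn: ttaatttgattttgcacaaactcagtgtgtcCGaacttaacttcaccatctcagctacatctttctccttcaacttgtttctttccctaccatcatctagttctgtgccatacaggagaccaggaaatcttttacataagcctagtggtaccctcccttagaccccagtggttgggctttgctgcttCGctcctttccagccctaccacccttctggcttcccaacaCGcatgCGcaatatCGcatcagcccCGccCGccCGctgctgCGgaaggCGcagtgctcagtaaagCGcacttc
Peg3: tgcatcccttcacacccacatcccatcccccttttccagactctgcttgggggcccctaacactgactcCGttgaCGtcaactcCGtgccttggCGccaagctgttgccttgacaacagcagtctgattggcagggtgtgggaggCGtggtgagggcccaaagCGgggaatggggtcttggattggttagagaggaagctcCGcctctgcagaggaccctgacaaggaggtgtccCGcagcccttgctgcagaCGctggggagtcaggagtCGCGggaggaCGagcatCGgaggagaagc
Plagl1: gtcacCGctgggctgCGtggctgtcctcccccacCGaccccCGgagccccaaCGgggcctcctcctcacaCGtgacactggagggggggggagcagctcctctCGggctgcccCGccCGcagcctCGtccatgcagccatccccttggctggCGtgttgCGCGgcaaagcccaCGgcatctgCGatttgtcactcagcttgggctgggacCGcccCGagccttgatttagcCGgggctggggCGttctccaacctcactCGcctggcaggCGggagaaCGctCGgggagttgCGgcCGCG
Grb10: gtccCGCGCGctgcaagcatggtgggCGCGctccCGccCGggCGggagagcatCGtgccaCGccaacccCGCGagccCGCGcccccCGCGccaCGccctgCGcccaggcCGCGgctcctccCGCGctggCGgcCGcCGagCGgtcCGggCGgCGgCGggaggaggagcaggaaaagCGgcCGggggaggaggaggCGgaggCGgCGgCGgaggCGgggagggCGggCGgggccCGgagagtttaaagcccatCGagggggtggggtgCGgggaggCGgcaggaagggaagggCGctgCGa
The window of Grb10 held 45 CG dinucleotides, that of Plagl1 26, that of Peg3 13 and that of Ndn 11, where the median of 32851 RefSeq promoter windows was 7 and the 90th percentile 31. Where a member had several windows, the one with the most CG was used, whereas the background counts every window. The windows left out held 9 in Grb10, 1 in Meg3, and 17 and 8 in Mest. Among the 9 windows so chosen (H19 had none), only that of Grb10 lay above the 90th percentile. Those of the 6 called members ranged from 11 in Ndn to 45 in Grb10, all above the median, which depends on this choice. In the same 9 windows, searched on both strands, the letters GGGGCCCC occurred in Peg3 alone (1.08% of all windows hold them), TATAAA in Meg3 alone (13.6%) and GCCATNTT, the core of the YY1 motif, in 0 (6.05%). A match in letters is a description and not a binding site.

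Ndn encodes necdin, a MAGE-family protein that restrains proliferation, and is transcribed from the paternal allele in the Prader-Willi region of chromosome 7 (chr7:61998025-62000010, mm39, the build of all gene positions given here). Its normalized counts were 2145, 2142, 1371, 1572 and 2467 in qHSC 1 to 5 and 97.0, 15.5, 39.9, 6.29 and 0 in hypHSC 1 to 5. Its highest hypHSC library, hypHSC 1, was far below its lowest qHSC library, and hypHSC 5 held 0 reads. The means were 1939.6 ± 453 in qHSCs and 31.8 ± 39.5 in hypHSCs (SD, n = 5 each), 61.1-fold lower in hypHSCs. The log2 fold change was -7.11 with a standard error of 0.99 (limma, adjusted p = 0.000149), the largest fall among the members tested. An entry without a symbol that shares 1002 bases with the start of Ndn held 299 ± 76.1 in qHSCs and 5.44 ± 6.35 in hypHSCs, and since the libraries did not keep the strand, reads of both entries cannot be told apart where they overlap.

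Plagl1, on chromosome 10 (chr10:12966427-13007438), encodes a zinc finger transcription factor that acts on a network of other imprinted genes, and is paternally expressed. It was measured at 248, 227, 106, 102 and 169 normalized counts in qHSC 1 to 5. In hypHSC 1 to 5 it was measured at 12.1, 6.21, 15.8, 0 and 0. Reads were thus found in hypHSC 1, 2 and 3 and none in hypHSC 4 and 5. The means were 170.4 ± 67.1 and 6.83 ± 7.11 (SD, n = 5 each), 24.96-fold lower in hypHSCs, and limma put the log2 fold change at -5.20, its standard error at 0.87 (adjusted p = 0.000524). With 34 reads in all hypHSC libraries, this size depends on the added 1. It was -5.64 with a pseudocount of 0.5, -4.04 with a pseudocount of 5 and -4.61 by DESeq2.

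Peg3, also paternally expressed, encodes a large zinc finger DNA-binding protein and lies on chromosome 7 (chr7:6708893-6733421). Its normalized counts were 1335, 1160.5, 643, 776 and 679.6 in qHSC 1 to 5 and 136, 48.7, 26.6, 4.2 and 15.1 in hypHSC 1 to 5. The hypHSC libraries spanned a 32.4-fold range, from hypHSC 4 to hypHSC 1, against a 2.08-fold range among qHSCs, without overlap. The means were 919 ± 310.3 and 46.1 ± 52.9 (SD, n = 5 each), 19.9-fold lower in hypHSCs, and the log2 fold change by limma was -5.0, its standard error 0.73 (adjusted p = 0.000194). Its antisense partner Peg3os, 865 bases long and inside the span of Peg3, held 119 ± 27.3 in qHSCs and 8.76 ± 7.74 in hypHSCs, and without strand the reads of the pair cannot be separated.

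Mest encodes an enzyme of the α/β-hydrolase fold family that is abundant in embryonic mesoderm and in expanding fat, is paternally expressed and lies on chromosome 6 (chr6:30733505-30748464). The qHSC libraries held 913, 969, 498, 1155 and 1879 normalized counts and the hypHSC libraries 37.7, 41.4, 55.7, 26.2 and 39.3, in order of replicate number. Its hypHSC libraries lay closest together of the 6 called members, with a coefficient of variation of 26.3%, and all were below qHSC 3, the lowest qHSC library. The means were 1083 ± 506 and 40.1 ± 10.5 (SD, n = 5 each), 27.0-fold lower in hypHSCs, and limma put the log2 fold change at -4.63, its standard error at 0.36 (adjusted p = 2.44e-06). Copg2, a coat protein gene whose span shares 912 bases with the 3′ end of Mest, was measured at 601 ± 145 in qHSCs and 603 ± 138 in hypHSCs, a log2 difference of -0.00 with a 95% interval of -0.53 to 0.53.

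Mest is also the host gene of a microRNA, and so are Meg3, Rian, Mirg and H19. In the RefSeq table used, hairpin entries within these spans numbered 1 for Mest, 1 for Meg3, 3 for Rian, 10 for Mirg and 1 for H19, and the span of Meg3 also held the mature mmu-miR-1906, for which no hairpin entry was used. The 5p products of the hairpins in Mest and Meg3 are shown, because these 2 host transcripts were called lower, with the seed (bases 2 to 8) in capitals.
mmu-miR-335-5p: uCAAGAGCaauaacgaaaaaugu
mmu-miR-770-5p: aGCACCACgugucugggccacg
They lie at chr6:30741314-30741336 and chr12:109563710-109563731 (GRCm38.p6, + strand), and their seeds differ. Reverse transcription started from poly(A) tails, so mature microRNAs were not measured: the entry Mir335 held 0 to 3.42 normalized counts in qHSCs and 0 in every hypHSC library.

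Grb10 encodes an adaptor protein that binds the insulin and IGF1 receptors and dampens their signal, and is maternally expressed in most tissues and paternally in neurons. On chromosome 11 (chr11:11880499-11987953), it was measured at 2404, 2451, 2359, 1887 and 2380.5 normalized counts in qHSC 1 to 5 and 369, 325, 225, 108 and 260.1 in hypHSC 1 to 5. The qHSC libraries varied little, with a coefficient of variation of 10.1%, and qHSC 4 stood below the other 4. The means were 2296 ± 231 and 257 ± 101 (SD, n = 5 each), 8.92-fold lower in hypHSCs, and limma put the log2 fold change at -3.26, its standard error at 0.30 (adjusted p = 8.13e-06). Inside the span of Grb10 lie 3 entries without a symbol, whose means in qHSCs were 53.6, 219 and 140 and in hypHSCs 1.62, 11.1 and 7.46, each without overlap between the groups. Without strand, their reads cannot be separated from those of Grb10, so they are not independent of it.

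Meg3, Rian and Mirg are noncoding RNAs of the maternal chromosome, transcribed in 1 direction from the Dlk1-Dio3 domain of chromosome 12, where Dlk1, Rtl1 and Dio3 are paternally expressed. Meg3 (chr12:109506879-109538163) was measured at 560.2, 360.4, 149, 234 and 413 normalized counts in qHSC 1 to 5 and 74.1, 120.1, 49.9, 5.25 and 15.1 in hypHSC 1 to 5. The nearest libraries were qHSC 3 and hypHSC 2, and the groups did not overlap. The means were 343 ± 159.6 and 52.9 ± 46.6 (SD, n = 5 each), 6.49-fold lower in hypHSCs, and the log2 fold change by limma was -3.19, its standard error 0.76 (adjusted p = 0.00501), close to that of Grb10.

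Rian, the host of box C/D small nucleolar RNAs (chr12:109570379-109628150), was measured at 33.5, 25.6, 3.15, 1.71 and 27.7 in qHSC 1 to 5 and 2.7, 0, 23.3, 16.8 and 0 in hypHSC 1 to 5. In both groups some libraries were near 0 and others above 15, so the groups overlapped. The log2 fold change was -1.51 with a 95% interval of -4.07 to 1.05 (limma, adjusted p = 0.309; exact permutation p = 0.238), so a fall as large as that of Meg3 lies within the interval. Mirg, the host of a microRNA cluster (chr12:109696198-109715889), was measured at 5.43, 9.37, 4.72, 12.0 and 9.74 in qHSCs and 8.09, 0, 2.49, 0 and 0 in hypHSCs, with 50 reads in all in qHSCs and 9 in hypHSCs. It was above the floor in every qHSC library and in 1 hypHSC library, hypHSC 1, which overlapped the qHSCs (exact permutation p = 0.0238, not adjusted, below the filter).

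Dlk1, a transmembrane relative of the Notch ligands that holds back adipocyte differentiation (chr12:109418749-109429262), had 2 reads in qHSC 1 and 0 reads in the other 9 libraries. H19 (chr7:142129267-142131883), a maternally expressed noncoding RNA next to Igf2, had 0 reads in all 10 libraries, which allows up to 4.54 normalized counts in a hypHSC library and up to 2.72 in a qHSC library. These limits cover counting error only, and neither gene was detectable at this depth in hypHSCs. In the same domain as Dlk1, Rtl1 was at 0 in every library and Dio3 was at 0 in every qHSC library, with 5.82 in hypHSC 3 and 4.54 in hypHSC 5.

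**Figure D2:**
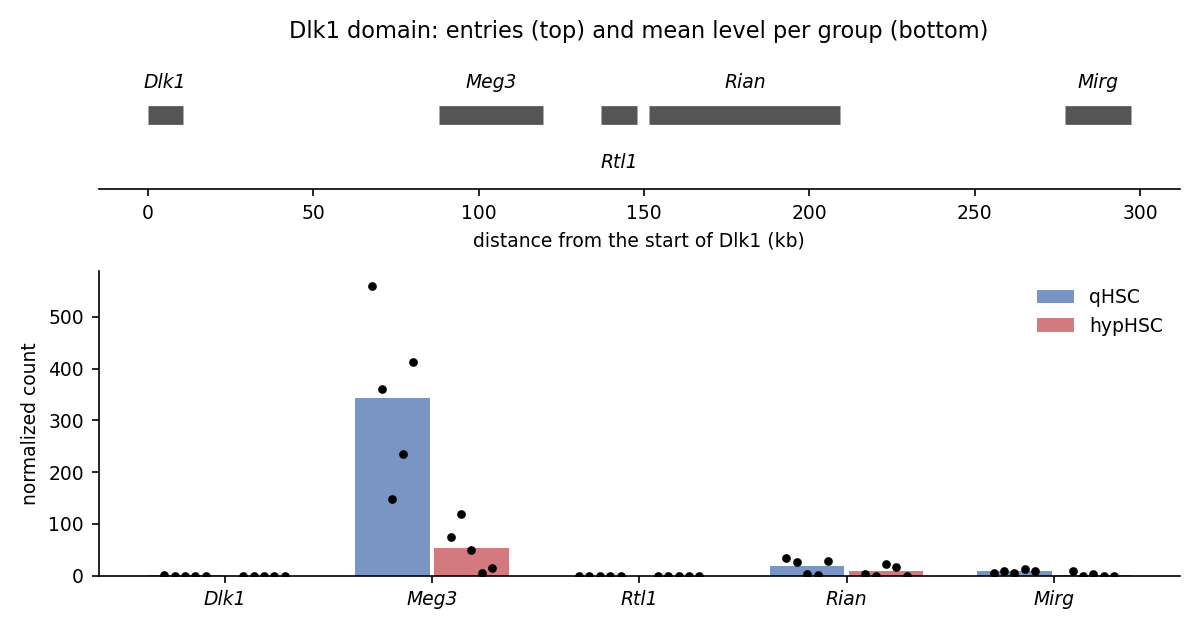
The upper panel shows the spans of Dlk1, Meg3, Rtl1, Rian and Mirg as distance in kb from the start of Dlk1; Dio3, at 827 kb, is not drawn. The lower panel shows the mean normalized count of each entry in qHSCs (blue) and hypHSCs (red) with each library as a point: Meg3 reaches a mean of 343 in qHSCs, Rian and Mirg stay below 34 in every library, and Dlk1 and Rtl1 are at or near 0.

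The 4 members of the domain were also compared within a library, as differences of log2(normalized count + 1), which does not depend on the scaling apart from the added 1. Relative to Meg3, Rian was 1.68 higher in hypHSCs than in qHSCs (exact permutation p = 0.349, adjusted over the 4 ratios 0.466) and Mirg 1.05 higher (exact permutation p = 0.238, adjusted 0.466). Relative to Rian, Mirg differed by -0.64 (exact permutation p = 0.635, adjusted 0.635). Rian was at or under the floor in 3 of the 5 hypHSC libraries and Mirg in 4, so these 3 ratios rest largely on the added 1 and say little about relative levels; Mirg to Meg3 passed the threshold with a pseudocount of 5 (adjusted exact permutation p = 0.0476) and without hypHSC 2 (0.0317). The ratio of Dlk1 to Meg3 was 2.89 higher in hypHSCs (exact permutation p = 0.00794, adjusted 0.0317), and with Dlk1 at or near 0 throughout, it carries the fall of Meg3 and nothing more.

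Per length of transcript, in FPKM (fragments per exon length and per total of reads on named genes), the order of the members in qHSCs was Ndn at 15.6 ± 3.02, Grb10 at 6.84 ± 0.748, Mest at 4.03 ± 1.67, Peg3 at 2.06 ± 0.709, Plagl1 at 0.606 ± 0.237 and Meg3 at 0.539 ± 0.248 (SD, n = 5), followed by Mirg at 0.0259 and Rian at 0.0172. The lengths join all annotated exons of a gene and are not those of the counted entries. That of Ndn, 3777 bases, is longer than the span of its entry. The FPKM that the study printed for Dcn, Lrat and Des also differ from those computed in this way. The order and ranks between genes are therefore approximate. Ndn and Grb10 did not overlap, nor did Peg3 and Plagl1. The libraries of Grb10 and Mest overlapped, as did those of Mest and Peg3 and those of Plagl1 and Meg3. Among 23194 named genes with an exon length, Ndn ranked 1969th by its FPKM in qHSCs and Grb10 3446th. In hypHSCs Grb10 led with 0.605 ± 0.247, ahead of Ndn at 0.211 ± 0.257, Mest at 0.121 ± 0.0442, Peg3 at 0.0827 ± 0.0943, Meg3 at 0.0680 ± 0.0598 and Plagl1 at 0.0207 ± 0.0223. Ndn then ranked 12073rd and Grb10 9287th, and the libraries of each neighbouring pair in this order overlapped.

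The 6 called members were not equally low in every hypHSC library. Taken as a percentage of its qHSC mean, the median of the 6 was 11.0% in hypHSC 1, 4.56% in hypHSC 2, 7.21% in hypHSC 3, 0.993% in hypHSC 4 and 2.64% in hypHSC 5. The lowest hypHSC library was hypHSC 4 for 5 of the 6 (tied with hypHSC 5 for Plagl1) and hypHSC 5 for Ndn. The summed level of the quiescent stellate cell markers had the same pair at its lower end, 9054 in hypHSC 4 and 5041 in hypHSC 5, against 13150 to 17603 in the other 3. With hypHSC 1, 2 and 3 alone against all qHSCs the 6 were still called, and the log2 fold change of Meg3 was then -2.01 and that of Ndn -5.55. With qHSC 2, 3 and 5 alone, which leaves out the 2 qHSC libraries with the highest macrophage sums, the 6 were called as well.

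The labels give 2 durations of the diet, 13 weeks for hypHSC 1 and 2 and 12 weeks for hypHSC 3, 4 and 5. Meg3 averaged 97.1 normalized counts after 13 weeks (74.1 and 120.1) and 23.4 after 12 weeks (5.25 to 49.9). Peg3 averaged 92.4 (48.7 and 136) and 15.3 (4.2 to 26.6), and Grb10 347 (325 and 369) and 198 (108 to 260). Meg3, Peg3 and Grb10 did not overlap between durations, whereas Mest (39.6 and 40.4), Plagl1 (9.17 and 5.27) and Ndn (56.3 and 15.4) did. The share of all genes that separate in this way was not counted, so this split is a description only. No test was made, since with 2 libraries against 3 no permutation p falls below 0.1, and mitochondrial entries took 12.8% and 7.27% of reads in the libraries after 13 weeks, above the other 3. With the 12-week libraries alone against the qHSCs the 6 were called.

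**Figure D3:**
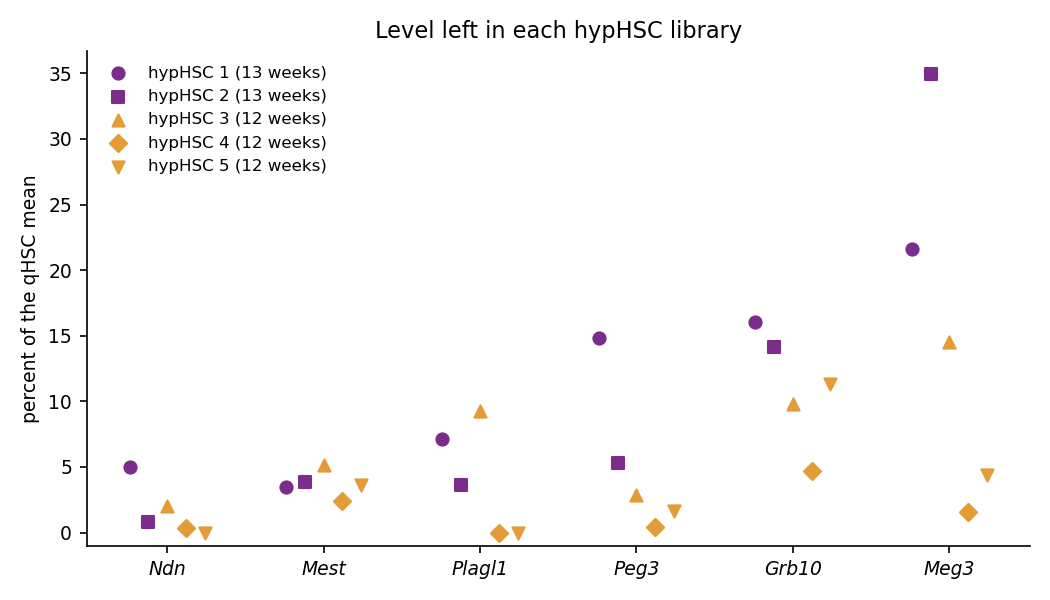
Level of the 6 called members in each hypHSC library as a percentage of the qHSC mean of the same gene, on a linear axis. Purple symbols are the libraries after 13 weeks of the diet and orange those after 12 weeks; Meg3 keeps 1.53% to 34.98% and Mest 2.42% to 5.15%.

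Other genes known to be imprinted were read from lists drawn up by parental label, with earlier results of these data known. Of 22 further entries reported as paternally expressed, 15 were tested, 9 were called lower, 0 were called higher by limma and 6 were not called, with a median log2 fold change of -1.88. DESeq2 and edgeR also called 0 higher, and at an unadjusted p of 0.05 limma had 1 higher, Kcnq1ot1, whose log2 fold change of 0.84 was under the threshold. With the 12-week libraries alone limma called Kcnq1ot1 and Impact higher, and without hypHSC 1 it called Impact higher, whereas scaled on Hprt, Pgk1 and Actb their log2 fold changes were -0.10 and -0.24 (both named after their values were seen). Of 31 reported as maternally expressed, 22 were tested, 4 were called lower, 6 higher and 12 not called, with a median of 0.18. Together 35.1% of the 37 tested were called lower and 16.2% higher, beside 21.7% and 17.8% of all genes. Some of the paternally expressed genes called lower, Peg10 among them, were below 10 normalized counts in every hypHSC library. These passed the filter only through qHSCs, where they were higher, so the count of lower calls is not free of that selection.

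Among the paternally expressed genes, Sgce, which encodes ε-sarcoglycan of the cell surface, fell from 6321 ± 794 to 564 ± 276 normalized counts (log2 fold change -3.59, limma, adjusted p = 1.69e-06), and its neighbour Peg10, a gene of retrotransposon origin, from 35.1 ± 16.0 to 2.74 ± 3.86 (-3.71, limma, adjusted p = 0.00195). Peg10 held 2, 9, 2, 0 and 0 reads in hypHSC 1 to 5, mostly under the floor, and passed the filter through its qHSC libraries alone. The size of its fall is therefore uncertain. Peg13, a noncoding RNA, fell by 3.47 on the log2 scale and Nap1l5, a nucleosome assembly protein-like gene, by 4.93. In the region of Ndn on chromosome 7, Peg12 fell from 911 to 119 and the joint entry of Snrpn, Snurf, Snhg14 and Ipw, which holds a splicing protein gene and its long noncoding continuation, from 3779 to 1121. Mcts2 was lower by 3.19 on the log2 scale (limma, adjusted p = 0.0382), a call that was lost when hypHSC 1 or any single qHSC library was left out. Igf2, the fetal growth factor next to H19, did not pass the filter: it was measured at 44.4, 91.2, 1.57, 53.0 and 91.4 in qHSC 1 to 5 and 8.09, 0, 0, 0 and 0 in hypHSC 1 to 5 (exact permutation p = 0.0159, not adjusted), low in qHSC 3 and at 0 in 4 of the hypHSC libraries.

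Among the maternally expressed genes both directions occurred. Igf2r, the receptor that takes up IGF2 for breakdown, rose from 157 ± 49.0 to 1188 ± 477 normalized counts (log2 fold change 2.85, limma, adjusted p = 5.86e-05), and Tnfrsf23, a decoy receptor gene, from 14.4 to 486 (5.30, limma, adjusted p = 1.28e-05). Gatm, an enzyme of creatine synthesis, rose by 4.31 on the log2 scale, from 295 ± 287 to 3837 ± 379. Cdkn1c, the cell cycle inhibitor p57, was higher by 2.11 (limma, adjusted p = 0.0100, 28.1 to 139.8), a call that was lost when libraries were scaled on Hprt, Pgk1 and Actb. Dcn, the proteoglycan decorin, fell from 674922 to 26713, Cd81, a tetraspanin, from 89752 to 16404, and Osbpl5, an oxysterol-binding protein gene, from 1219 to 155.

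**Figure D4:**
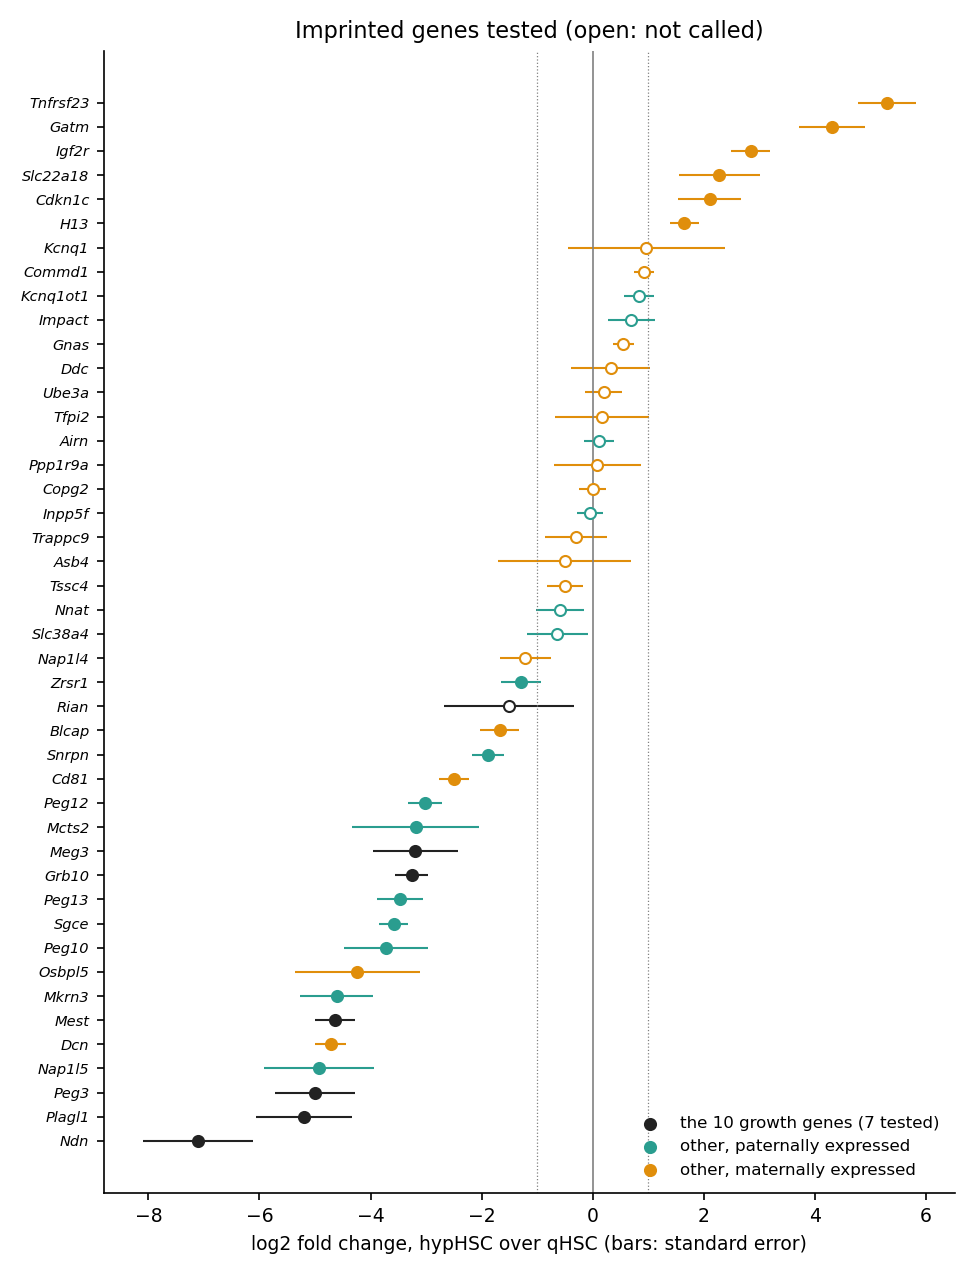
Log2 fold change of hypHSC over qHSC for the 44 imprinted genes tested, with limma's standard error as bars; dotted lines mark the fold change threshold, and open symbols were not called. The called members (black) lie from Ndn at -7.11 to Meg3 at -3.19, with Rian open at -1.51; the other maternally expressed genes (orange) spread from Dcn at -4.72 to Tnfrsf23 at 5.30.

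The listed methylation and imprinting factors, the Tet genes included, moved in both directions. Of 14 entries 13 were tested, 4 were called higher, 3 lower and 6 not. Among all genes tested 17.8% were called higher and 21.7% lower, and the count of lower calls is near that background. Dnmt3a, a de novo DNA methyltransferase, rose from 1258 ± 118 to 31585 ± 6886 normalized counts (log2 fold change 4.63, limma, adjusted p = 2.88e-08), and its cofactor Dnmt3l, at 0 reads in every qHSC library, reached 109 ± 47.7, at least 43.6-fold higher than the mean floor of 3 reads per qHSC library. Dppa3, which protects maternal methylation in the zygote, rose from 16.3 to 879.5, and Uhrf1, which guides Dnmt1 to newly copied DNA, from 39.8 to 246. Zfp57, the zinc finger protein that holds methylation at imprinted control regions, was lower, at 14.1 ± 22.4 against 99.2 ± 66.1 (log2 fold change -4.13, limma, adjusted p = 0.0084), a call that edgeR did not make. Dnmt3b and Tet1 were lower by 2.47 and 2.92 on the log2 scale, but the call of Dnmt3b was lost without qHSC 2 or qHSC 3, and that of Tet1 without qHSC 1, 2 or 3. Tet1 was not called by edgeR either. Trim28, the corepressor that Zfp57 recruits, stood at 1592 and 1612 in qHSCs and hypHSCs, a log2 difference of 0.00 with a 95% interval of -0.42 to 0.43. Dnmt1, the maintenance methyltransferase, had a log2 fold change of 0.70 with an interval of -0.30 to 1.70 and was not called, and neither were Zfp445 (-0.87), Ctcf (-0.02), Tet2 (0.44) and Tet3 (0.91).

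Of 6 genes whose products meet those of the members, 5 were tested. Igf1, a ligand of a receptor that GRB10 binds, rose from 2558 ± 1588 to 51698 ± 13551 normalized counts (log2 fold change 4.53, limma, adjusted p = 4.99e-06). The receptor gene Igf1r fell from 1860.1 ± 567 to 417 ± 184 (-2.25, limma, adjusted p = 0.00029), while the insulin receptor gene Insr stood at 312 and 271, a log2 fold change of -0.19 with an interval of -0.76 to 0.39. Igf2bp2, an RNA-binding protein gene of the family that binds Igf2 and H19 RNA, rose from 24.4 to 814 (4.91, limma, adjusted p = 9.02e-05), Igf2bp3 was not called at 0.34, and Igf2bp1 had 0 reads in every library.

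**Figure D5:**
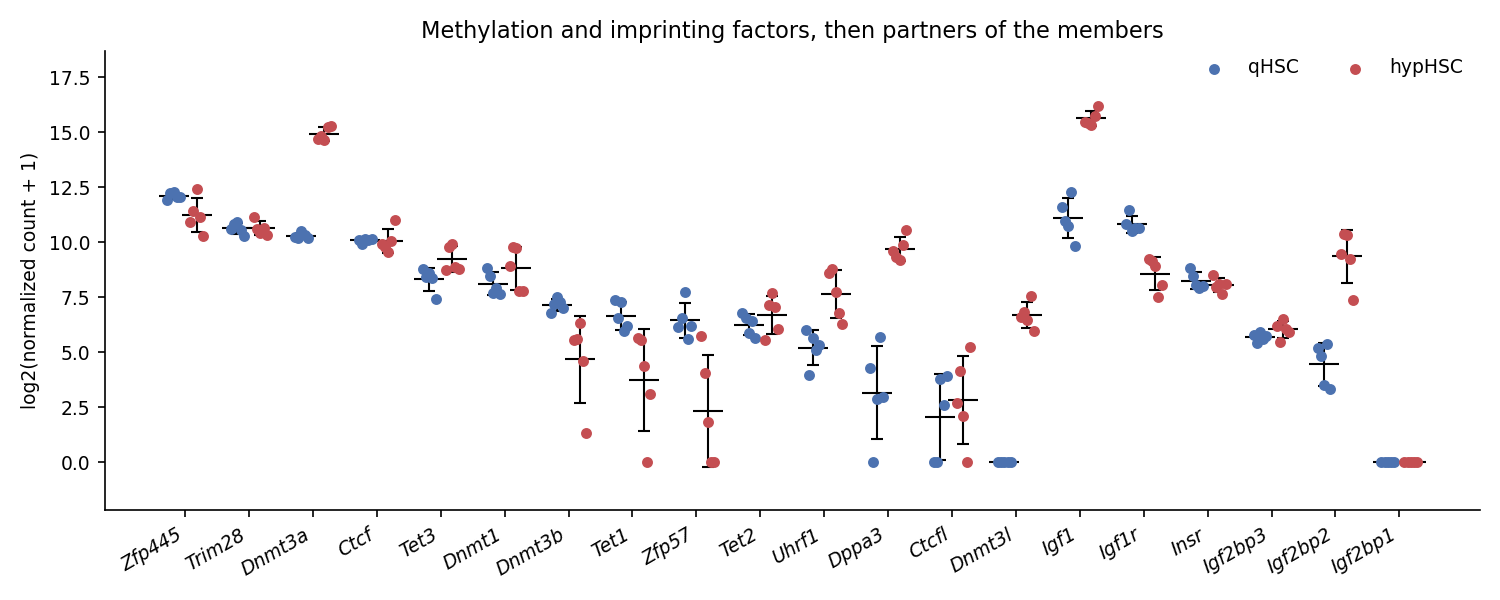
Level of 14 methylation and imprinting factors (left) and 6 partners of the members (right), as log2(normalized count + 1), in qHSCs (blue) and hypHSCs (red). Points are libraries, horizontal bars the means and whiskers the SD; Dnmt3a and Igf1 are higher in all 5 hypHSC libraries than in any qHSC library, and Dnmt3l is at 0 in all 5 qHSC libraries.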

How the data were processed

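RNA was sequenced in 5 hypHSC and 5 qHSC libraries. Reads were reverse-transcribed from poly(A) tails, sequenced at both ends without strand, mapped to mm39 with STAR 2.7.5a and counted per gene with featureCounts (Subread 1.5.0), per the labels and the study's methods. The deposited values are a signal: the authors scaled counts by a size factor per library, from DESeq2 (0.661 to 1.20 in hypHSCs, 1.10 to 1.33 in qHSCs). Multiplying each column by its factor gave whole reads for 100% of values, within the rounding of 0.005 normalized counts; these served for depth, FPKM and count tests. FPKM used the joined length of all exons of a gene in GENCODE on GRCm39, not the lengths of the counted entries.

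Log2(normalized count + 1) was fitted with limma 3.58.1 (intensity trend) in R 4.3.3, on named entries that reached 10 normalized counts in 5 or more libraries, with Benjamini-Hochberg adjustment over 14630 genes; exact permutation tests used all arrangements of 5 libraries against 5. DESeq2 1.42.0, edgeR 4.0.16, other pseudocounts, filters and scalings, the replicate number as a block, the 12-week libraries alone and each library left out were alternatives. Libraries hypHSC 1, 2 and 3 alone, qHSC 2, 3 and 5 alone, and the 37089 entries without a symbol were added after seeing the data. The scripts were tested on simulated data.

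The members and lists were chosen with earlier results of these data known. All members were named. Of the other imprinted genes, the text names from the 12 largest changes among called genes averaging 100 or more normalized counts without overlap, plus Igf2, Igf2r, Cdkn1c, Sgce, Peg10, Rtl1 and Dio3; of the methylation factors and partners, those tested. Genes overlapping members, Igf2bp1, and the markers Stab2, Cd5l and Tek were named after their values were seen. Promoter and microRNA sequences are from RefSeq (GRCm38.p6). Replicate numbers did not pair the libraries: the correlation of same-numbered libraries was over 0.1 in 1 of 5 pairs.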

Additional observations from a re-analysis of the deposited data

Results flagged for a closer look

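In 85 groups of 5 libraries the highest or lowest library was compared with the rest, and 8 stood apart (a gap to the nearest library of over 0.71 of the whole range). The groups were those of the members, the other imprinted genes named by rule, the methylation factors and the partners. Groups with 5 equal values were left out, and the markers and overlapping genes were not checked. Chance would set apart about 1 in 20 groups if the values followed a normal distribution. Counts at or near 0 do not, so the 8 cannot be set against that rate. Among the members, Dlk1 in qHSC 1 was at 1.81 normalized counts (2 reads) with the other qHSC libraries at 0, and Grb10 in qHSC 4 was at 1886.79, below the other 4 at 2359 to 2451. Igf2 in hypHSC 1 was at 8.09 with the others at 0, and Peg10 in hypHSC 2 at 9.32 with the others at 0 to 2.7. Zfp57 in qHSC 3 was at 214.15, above 47.9 to 92.0 in the others. Ctcf in hypHSC 5 was at 2052.44, above 758 to 1043, and in qHSC 2 at 975.59, below 1091 to 1134. Igf1r in qHSC 2 was at 2852.63, above 1466 to 1789.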

How the results depend on the processing

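The 6 called members were called lower in each alternative in which they were tested, and their log2 fold changes did not change sign. With each library left out they ranged from -3.65 to -2.58 for Meg3, -5.58 to -4.40 for Peg3, -4.88 to -4.40 for Mest, -5.69 to -4.67 for Plagl1, -3.42 to -2.98 for Grb10 and -7.82 to -6.17 for Ndn, and Rian, from -2.12 to -0.97, was not called. The number of members called was 5 of 5 tested with a filter on a mean of 100 normalized counts, 7 of 9 with no filter (Mirg added) and 6 otherwise. Other imprinted genes called numbered 16 to 21, and scaled on Hprt, Pgk1 and Actb 3 were higher and 18 lower. That scaling moved the median of all genes by -0.94, a common total by -0.35 and a common upper quartile by 0.11, with 82.6%, 67.6% and 50.9% of all calls lower against 55.0%. With the replicate block 6 members and 5786 genes were called, and no call of a member changed. Including entries without a symbol, 9291 of 24320 were called.

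The ratios depend on few reads. Mirg to Meg3 was 1.98 with a pseudocount of 5 (adjusted exact permutation p = 0.0476) and 0.69 to 1.75 with libraries left out, passing the threshold without hypHSC 2. Dlk1 to Meg3 missed it with the 12-week libraries alone (3.88, smallest p limited by 3 against 5) and without any 1 qHSC library (2.28 to 3.35 over all libraries left out). Mirg to Rian turned to 0.12 without hypHSC 4 and 0.05 without qHSC 4 (range -1.24 to 0.12). The cause was not tested. Levels under the floor of 3 reads cannot be separated from 0 at this depth.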
